A study of Mus musculus with 2 samples.

Results

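The TGF-beta pathway was examined in RNA-seq data of splenic Treg cells through 10 genes, given as a fixed list of gene symbols and all present among the 20938 genes measured. The list holds the ligands Tgfb1, Tgfb2 and Tgfb3, the latency proteins Lrrc32 and Nrros, the receptors Tgfbr1 and Tgfbr2, and the intracellular mediators Smad2, Smad3 and Smad7. The libraries were 1 from littermate control mice and 1 from Foxp3-Mettl14f/+ cKO mice, in which Cre recombinase driven by the Foxp3 promoter deletes 1 floxed allele of Mettl14, a subunit of the m6A methyltransferase, in Treg cells. All recipients were on the C57BL/6J background, had streptozotocin-induced diabetes, carried BALB/c islets under the kidney capsule, received no antibody treatment for this experiment, and were sampled on day 7 after transplantation. The study's methods give the littermate controls as Mettl14f/f, whereas the sample labels call them wild type and call the other library a Foxp3 knockdown. Neither the labels nor the methods give the age, the sex or the number of mice behind a library. Treg cells were isolated with magnetic beads, first by depleting cells other than CD4+ T cells and then by selecting CD25+ cells.

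TGF-beta is made as a latent complex, in which the mature cytokine is held by its own propeptide. GARP, the product of Lrrc32, anchors this complex on the surface of activated Treg cells, and NRROS, its relative, does so on myeloid cells such as microglia and macrophages. Once released, the cytokine binds TGFBR2, which recruits and phosphorylates TGFBR1, and the kinase then activates SMAD2 and SMAD3. SMAD7 is induced by the pathway and inhibits it. In T cells this pathway drives the induction of Foxp3 in peripheral Treg cells and restrains effector responses.

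The control library held 20239325 reads and the cKO library 18327535 reads, recovered from the deposited values, which are reads divided by 1 size factor per library. Each genotype is a single library, so differences could not be checked against replicates. Exact 95% intervals are given, but they account for counting error alone and hold no variation between mice. The sources used here describe no molecular identifiers. Reads may then not be independent molecules, so the intervals can be too narrow even for counting error. A level below is the deposited value, and a log2 change is that of the level plus 1, so it understates the change of low genes. Mettl14 had a level of 917 in control cells and 741 in cKO cells, a log2 change (cKO over control) of -0.31 with a 95% interval of -0.45 to -0.16. It was -0.0017 when 16 T cell core genes were set equal between the libraries. All 12 Treg markers, such as Foxp3, Il2ra and Ikzf2, had reads in both libraries, and their summed level was 9869 in control cells and 10346 in cKO cells. Their median log2 change was -0.13, with Il2ra at least 1.5-fold higher and Tnfrsf4 and Ikzf4 at least 1.5-fold lower. Markers of other cells were also present. A level given below for control or cKO cells is thus that of the whole library, not of Treg cells alone. In the control library the granulocyte marker S100a9 ranked 3 among all genes by deposited value, and Foxp3 ranked 3475. The 12 granulocyte markers summed to 253640 and 344069, and the 16 T cell core markers to 73992 and 59890. In bulk RNA, fewer cells of a type and less RNA per cell cannot be told apart.

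Of the 10 genes, Lrrc32 was the single gene past the 1.5-fold threshold, at 2.54-fold higher in the cKO library, and none was 1.5-fold lower. That is 10% of the list, against 17.2% of the 16659 genes tested, those whose level averaged 1 or more, that were at least 1.5-fold higher and 24.2% that were lower by as much. Among the 4897 genes with a mean above 1000, as 7 of the 10 had, 10.1% were higher and 5.17% lower by this threshold, and none of the 7 passed it. The other genes moved less, and 7 of them, namely Tgfb1, Nrros, both receptors and the 3 SMADs, had values 1.14-fold to 1.39-fold higher in the cKO library with intervals above 0 on the log2 scale. Over all genes tested, 46.7% had a log2 change above 0, and the median was 0.06 over those with a mean above 1000. Counting intervals are narrow at the read counts of these 7 genes, so small changes clear 0. The intervals of Tgfb2 and Tgfb3 held 0. The median log2 change was 0.33 over the 10 genes and -0.04 over all genes, of which the upper quartile was 0.35. The sign of all 10 genes was the same under the 3 alternative scalings. A change of pseudocount or filter cannot reverse the sign of a gene.

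Per kilobase of exon the genes kept the same order of level in both libraries. In the control library the deposited value per kilobase was 797 for Tgfb1, 649 for Nrros, 623 for Tgfbr2 and 462 for Smad7. It was 296 for Smad3, 193 for Tgfbr1 and 171 for Smad2. Lrrc32 at 38.6, Tgfb3 at 12.3 and Tgfb2 at 1.50 were the lowest. In the cKO library these values ran from 1029 for Tgfb1 and 877 for Nrros down to 98.5 for Lrrc32, 9.41 for Tgfb3 and 0.982 for Tgfb2. Lengths are those of all annotated exons merged and were taken as exact. On them, Nrros and Tgfbr2 could not be separated in the control library, where their ratio was 1.04 (95% interval 0.995 to 1.09). The merged lengths are 4177 and 8187 bases, and the longest coding transcripts 3577 and 8092, so this ratio depends on the length chosen. In the cKO library the ratio was 1.14 (1.09 to 1.19), and every other pair of neighbours had an interval above 1 in both libraries. Lrrc32 moved closest to its upper neighbour, since Smad2 was 4.44 times as high per kilobase in the control library and 1.99 times in the cKO library.

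**Figure D1:**
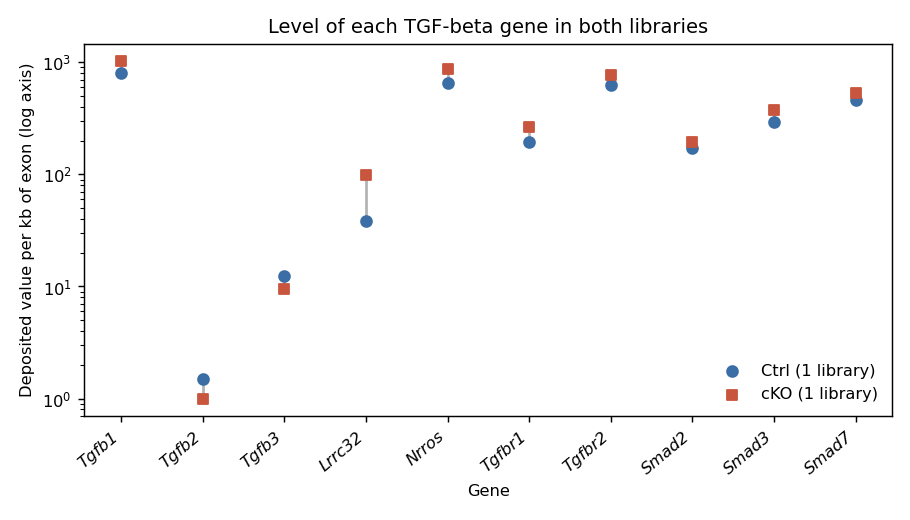
Deposited value per kilobase of exon (log axis) of each of the 10 genes, with a circle for the control library and a square for the cKO library, 1 library each. Tgfb1 is highest at 797 and 1029, Tgfb2 lowest at 1.50 and 0.982, and the widest gap between the libraries is that of Lrrc32, from 38.6 to 98.5.

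Among the ligands, Tgfb1 had by far the highest level per kilobase. It lies at GRCm38 chr7:25687002-25705077 (plus strand). Its level was 4017 in control cells and 5187 in cKO cells, from 4152 and 4561 reads, and its log2 change was 0.37 with a 95% interval of 0.31 to 0.43. Tgfb3, at chr12:86056745-86079041, had levels of 41.6 and 31.8 from 43 and 28 reads. Its log2 change was -0.38 (-1.13 to 0.33), so a difference was not detectable at this depth. Tgfb2, at chr1:186622792-186705989, had levels of 8.71 and 5.69 from 9 and 5 reads, and its log2 change was -0.54 (-2.54 to 1.12). Both rare ligands share exonic bases with genes on the opposite strand, 124 bases with Gm29491 for Tgfb2, and 257 with Gm48008 and 163 with Gm37804 for Tgfb3. Whether the counting used strand is not given in the sources used here, so part of these few reads may belong to the other genes. A ratio of reads within each library does not depend on scaling, and it was compared for 9 pairs of genes. Tgfb3 per Tgfb1 read was 0.593 times as high in the cKO library as in the control library (95% interval 0.354 to 0.978). The same change for Tgfb2 per Tgfb1 read was 0.506 (0.133 to 1.68), an interval that includes 1.

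The sequences before the start sites of the most and the least abundant ligand are shown because these genes lie at both ends of the levels. Each is the 250 bases before the RefSeq start site on GRCm38.p6, at chr7:25686752-25687001 on the plus strand for Tgfb1 and at chr1:186705990-186706239 on the minus strand for Tgfb2. Capitals mark matches on either strand to the GC box GGGCGG, to the TATA box TATAAA and to CAGAC, which holds the core of the SMAD-binding element.
Tgfb1: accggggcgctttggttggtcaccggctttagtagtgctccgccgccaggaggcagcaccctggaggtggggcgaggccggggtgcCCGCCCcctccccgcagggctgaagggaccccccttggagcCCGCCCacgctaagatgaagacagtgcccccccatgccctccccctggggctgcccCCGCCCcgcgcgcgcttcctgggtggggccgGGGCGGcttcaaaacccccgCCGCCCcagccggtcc
Tgfb2: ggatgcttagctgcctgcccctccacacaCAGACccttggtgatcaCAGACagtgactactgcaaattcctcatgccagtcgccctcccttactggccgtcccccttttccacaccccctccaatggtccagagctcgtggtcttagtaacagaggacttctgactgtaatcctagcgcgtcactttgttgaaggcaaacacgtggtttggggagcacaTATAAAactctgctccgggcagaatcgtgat
The Tgfb1 window held 5 matches to GGGCGG and none to the other motifs, with a GC content of 75.2%. The Tgfb2 window held 1 match to TATAAA, which begins 31 bases before the start, and 2 to CAGAC, with a GC content of 53.6%. Of 32851 windows of the same length, 32.7% held GGGCGG, 12.4% TATAAA and 42.2% CAGAC, and the median GC content was 52.4%. The motifs searched do not overlap in these windows, and a match is a description of the letters. RefSeq promoter entries were matched for 6 of the 10 genes.

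Lrrc32, which encodes GARP, had the largest change of the 10 genes. It lies at chr7:98489283-98502181 (plus strand). Its level was 181 in control cells and 462 in cKO cells, from 187 and 406 reads. The log2 change was 1.35 (95% interval 1.10 to 1.61), and 7.68% of all genes tested had a higher value. Tested on its reads with an exact binomial test, a comparison of 2 libraries rather than of genotypes, Lrrc32 had an adjusted p of 2.99e-27. Among 14863 genes tested this way, 2202 or 14.8% were higher past both 1.5-fold and an adjusted p of 0.1, and 2603 were lower. When a coefficient of variation of 0.4 between replicates was assumed in the exact test of edgeR, Lrrc32 had an adjusted p of 0.868, and 229 genes were higher and 569 lower. Its call therefore rests on counting error alone. Foxp3, whose product marks Treg cells, had levels of 1497 and 1548, a log2 change of 0.05 (-0.06 to 0.15). Reads of Lrrc32 per read of Foxp3 were 2.47 times as high in the cKO library (95% interval 2.04 to 2.99).

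Nrros, at chr16:32142785-32165594 (minus strand), was the more abundant latency gene. Its level was 2713 in control cells and 3665 in cKO cells, from 2804 and 3223 reads, and its log2 change was 0.43 (0.36 to 0.51), which is under 1.5-fold. Lrrc32 per Nrros read was 1.89 times as high in the cKO library (1.57 to 2.27), the largest increase of a ratio among the pairs of genes with the same role. Per kilobase, Nrros stayed above Lrrc32 in both libraries.

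Other cells in the spleen also express these genes, Lrrc32 in platelets and endothelial cells and Nrros in myeloid cells, and markers of several of them moved in the same direction. Of 12 megakaryocyte and platelet markers, 11 passed the filter and 7 were at least 1.5-fold higher. Their summed level was 1109 in control cells and 1717 in cKO cells, 1.55-fold higher, with Gp6 at 0 in both. Of 12 endothelial and stromal markers, 8 passed the filter, 2 were higher and 3 lower. They summed to 2518 and 3560, mostly Pecam1, which leukocytes express as well. Emcn, Col3a1, Dcn and Madcam1 were at 0 in both libraries, Col1a2 in the control library and Tek in the cKO library. All 15 macrophage and monocyte markers were at least 1.5-fold higher, and their sum went from 26695 to 58415, 2.19-fold, with Marco at 0 in the control library. All 12 B cell markers were higher too, with a sum of 8772 and 44893, 5.12-fold. Of the remaining lists, 6 of 8 CD8 T and NK cell markers and 2 of 8 dendritic cell markers were higher, 10 of 11 erythroid markers were lower, and the granulocyte markers were mixed, with 2 higher and 3 lower. The part of these cells in the changes of Lrrc32 and Nrros was not tested.

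**Figure D2:**
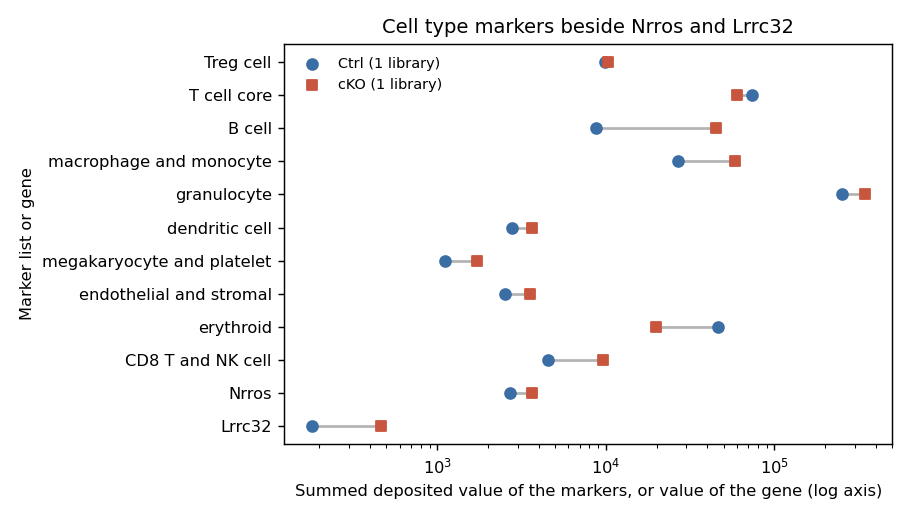
Summed deposited value (log axis) of the markers of 10 cell types, and the value of Nrros and Lrrc32, in the control library (circles) and the cKO library (squares), 1 library each. Treg markers lie at 9869 and 10346, whereas B cell markers rise from 8772 to 44893 and Lrrc32 from 181 to 462.

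Both receptor genes had more reads in the cKO library. Tgfbr1 encodes the type I receptor kinase and lies at chr4:47353222-47414931 (plus strand). Its level was 1261 and 1747 in the control and cKO libraries, from 1303 and 1536 reads, and its log2 change of 0.47 (95% interval 0.36 to 0.58) was the second highest of the list. Tgfbr2, the ligand-binding type II receptor, lies at chr9:116084293-116175360 (minus strand). Its level was 5103 and 6290, from 5275 and 5531 reads, with a log2 change of 0.30 (0.25 to 0.36). Neither gene reached 1.5-fold. Tgfbr1 per Tgfbr2 read was 1.12 times as high in the cKO library (1.03 to 1.22), so the type I receptor changed slightly more than the type II receptor.

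Smad2 and Smad7 had the smallest changes of the 10 genes, and Smad3 changed more. Smad3, at chr9:63646767-63757994 (minus strand), had levels of 1642 and 2100 from 1697 and 1847 reads, and its log2 change was 0.36 (0.26 to 0.45). Smad2, at chr18:76241580-76310963, had levels of 1503 and 1717 from 1554 and 1510 reads and changed by 0.19 (0.09 to 0.29). Smad7, the inhibitory member at chr18:75367529-75395935, had levels of 2090 and 2382 from 2160 and 2095 reads and changed by 0.19 (0.10 to 0.28). Smad2 and Smad7 thus had fewer reads in the cKO library and a higher level only after scaling. Smad7 per Smad2 read did not differ detectably, with a change of 0.998 (0.909 to 1.10). Both were lower per Smad3 read, by a factor of 0.893 for Smad2 (0.809 to 0.985) and 0.891 for Smad7 (0.814 to 0.975).

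**Figure D3:**
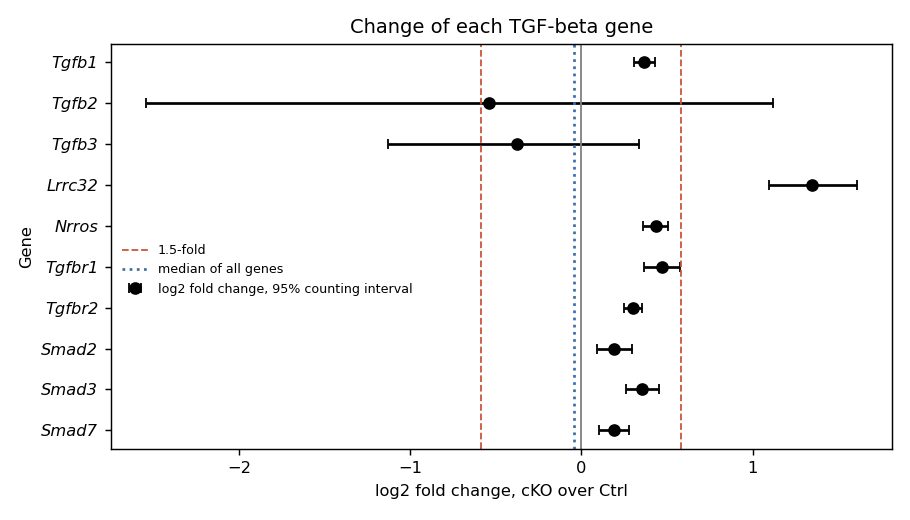
log2 change of each gene, cKO over control, with its 95% exact counting interval, beside the 1.5-fold lines and the median of all genes at -0.04. Lrrc32 at 1.35 lies past the 1.5-fold line with its whole interval, 7 genes lie between 0.19 and 0.47, and the wide intervals of Tgfb2 and Tgfb3 include 0.

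The count of genes past 1.5-fold depended on how the libraries were scaled. With the summed level of the 16 T cell core genes made equal between the libraries, 6 of the 10 genes were at least 1.5-fold higher, namely Tgfb1, Lrrc32, Nrros, Tgfbr1, Tgfbr2 and Smad3, as were 28.3% of all genes. Under it, the median log2 change of all genes was 0.26 instead of -0.04, and the share of higher genes among all those past 1.5-fold was 59.5% instead of 41.6%. Per read on the T cell core genes, the change was 3.15 for Lrrc32 (2.64 to 3.77) and 1.71 for Tgfbr1 (1.59 to 1.85). It was 1.41 for both Smad2 (1.31 to 1.52) and Smad7 (1.32 to 1.50), and the intervals of Tgfb2 and Tgfb3 included 1. Per read of Foxp3 the changes of the 8 genes other than Tgfb2 and Tgfb3 were smaller. Lrrc32 at 2.47 was then the single gene at least 1.5-fold higher, Tgfbr1 was at 1.34 (1.21 to 1.49) and Nrros at 1.31 (1.19 to 1.43), and the interval of Smad2, from 0.996 to 1.22, included 1. Tgfb2 was at 0.631 (0.166 to 2.10) and Tgfb3 at 0.740 (0.440 to 1.23), farther below 1 than per T cell core read and again with intervals that included 1.

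**Figure D4:**
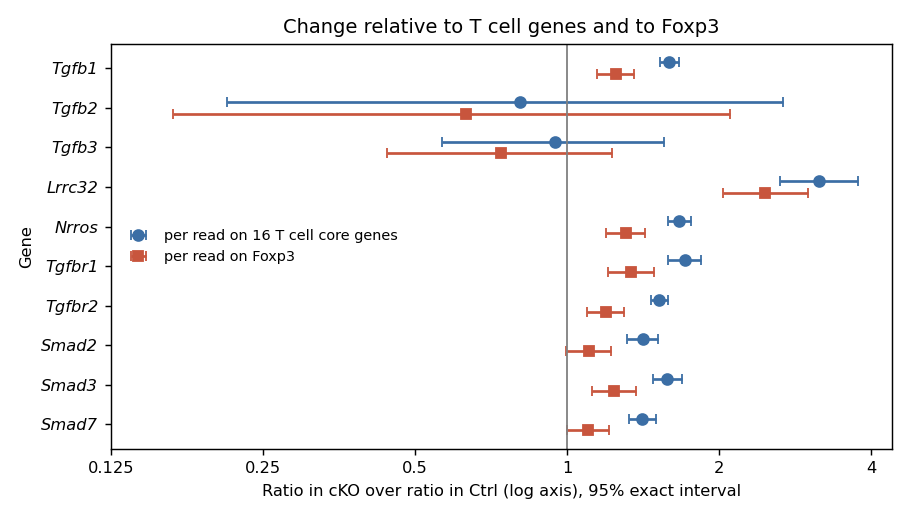
Reads of each gene per read on 16 T cell core genes (circles) and per read of Foxp3 (squares), as the ratio in the cKO library over that in the control library (log axis) with 95% exact intervals. Lrrc32 is farthest from 1 at 3.15 and 2.47, and the intervals of Tgfb2 and Tgfb3 include 1 on both.

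The rest of the pathway was described through 6 lists of 98 genes written from general knowledge, of which 92 passed the filter. In these lists 18 genes, or 19.6%, were at least 1.5-fold higher and 16, or 17.4%, at least 1.5-fold lower, with a median log2 change of 0.12. Over all 16659 genes tested, 17.2% were higher and 24.2% lower by this threshold, and the median was -0.04. Of the 92 genes, 12 had 0 reads in 1 library, and 3 of these, all counted as lower, had too few reads to be past 1.5-fold against a floor of 3 reads.

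Of 19 genes of latency and activation, 4 were higher and 4 lower, with a median of -0.08. Thbs1, which encodes thrombospondin-1, an activator of latent TGF-beta that platelets and macrophages make, was 6.32-fold higher, from 263 to 1419 reads. The integrin gene Itgb5 was 2.83-fold higher. Among the other integrin chains of this list, Itgav had a log2 change of 0.20 and Itgb8 one of -0.53 from 89 and 52 reads, both short of 1.5-fold. Itgb6, another of these chains, had 19 and 0 reads and was at least 5.39-fold lower against a floor of 3 reads in the cKO library. Furin, the convertase that cleaves the precursor, had a value of 0.26. Mmp9, a protease abundant in granulocytes, had the highest mean deposited value of the list and had levels of 8390 and 11552.

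Of 12 co-receptor and related receptor genes, 11 passed the filter, 3 were higher and 2 lower, and the median was -0.01. Tgfbr3, the co-receptor betaglycan, had the highest deposited value of them as a mean over both libraries, with 1747 and 1059 reads and a log2 change of -0.49, short of the threshold. Bmpr1a, a BMP receptor, was lower at -0.65, and Acvr2b, an activin receptor, was higher at 0.62.

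Of 26 other SMADs and SMAD regulators, 3 were higher and 0 lower, with a median of 0.14. Zfyve9, which encodes the SMAD anchor SARA, was 2.16-fold higher, and Tgif1, a SMAD corepressor, 1.99-fold higher. The third, Smad9, had 0 and 15 reads and was at least 5.88-fold higher against a floor of 3 reads in the control library. Smad4, the common partner of SMAD2 and SMAD3, had a log2 change of 0.36, equal to that of Smad3 at 2 decimals. Tab2, with the highest deposited value of this list as a mean over both libraries, had a log2 change of 0.58, just short of 1.5-fold. Of 9 SMAD transcription partners, 0 were higher and 1, Foxh1, was lower, from 17 to 7 reads. Ets1, with the highest mean deposited value of the partners, had levels of 16371 and 20422, and the median was 0.32.

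Of the 15 genes known to respond to TGF-beta, 3 were higher and 4 lower, against 17.2% and 24.2% of all genes tested. Of those 4, 2 had too few reads to be past 1.5-fold against the floor. The log2 change was above 0 for 10 of the 15, against 46.7% of all genes tested. The median was 0.29, against -0.04 over all genes. The list does not separate genes that TGF-beta raises from genes that it lowers. Over the response genes with reads in both libraries the median was 0.42. Foxp3 and Itgae of this list are also among the Treg markers. Tgfbi, a matrix protein gene that macrophages express strongly, was 1.92-fold higher, with 3378 and 5504 reads. Cdkn1a, a cell cycle inhibitor, was 1.51-fold higher. Rgs16, a regulator of G protein signalling, fell by 1.59 on the log2 scale, from 94 to 26 reads. The feedback genes Skil, with a log2 change of -0.02, Pmepa1 with 0.29 and Ldlrad4 with 0.26 stayed under 1.5-fold, as did Smad7. Itgae, the integrin chain that TGF-beta induces in T cells, had a value of 0.57, just under the threshold of 0.58.

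**Figure D5:**
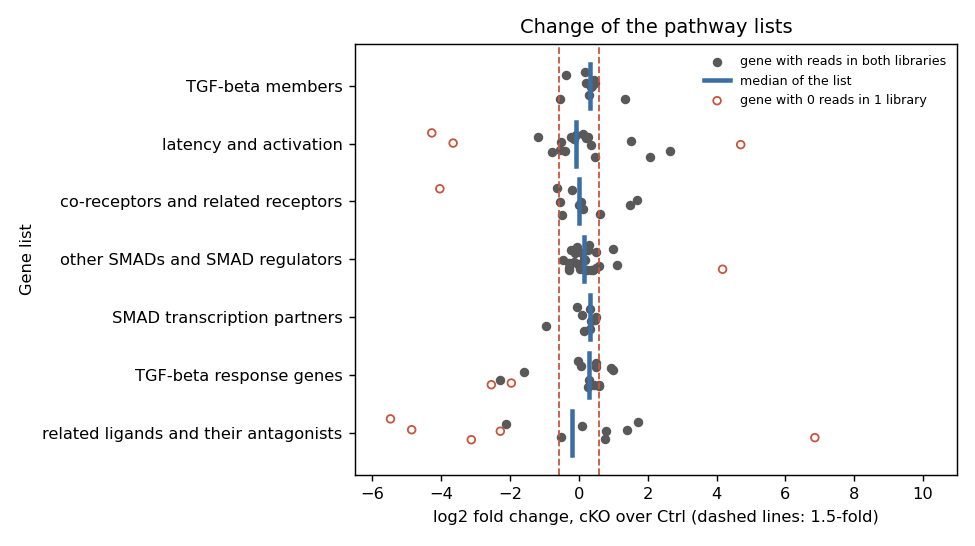
log2 change, cKO over control, of the genes past the filter in the 10-gene list and 6 pathway lists, with vertical bars at the list medians, open circles for genes with 0 reads in 1 library and dashed lines at 1.5-fold. The medians range from -0.21 for related ligands and antagonists to 0.33 for the 10 genes, and most genes lie between the dashed lines.

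METTL14 and METTL3 methylate adenosines mostly within a motif of which GGACT is a common form, so its frequency in the transcripts was recorded. The longest coding transcript of each of the 10 genes held at least 1 GGACT on the sense strand, as did 91.7% of 16302 genes. The density per kilobase was 2.30 in Tgfb1 and 2.24 in Nrros, 1.53 in Lrrc32, and 0.393 in Smad3. The median was 1.08 over the 10 genes and 1.04 over all genes. Lrrc32, with the largest change, held 7 matches in 4576 bases, and Tgfb1 held 5 in 2175 bases. A match is not a modified base, and m6A itself was not measured in these libraries.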

How the data were processed

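RNA-seq was performed on 1 library of splenic Treg cells per genotype. The authors deposited 1 value per gene, a signal that equals a read count divided by 1 size factor per library: 100% of values were whole multiples of the smallest value of their library within 0.001. The values per read were 0.967 and 1.14. The methods name TopHat, the submitters' processing notes bcl2fastq 2.0, STAR, StringTie and DESeq2 with mm10; the annotation is not given in the sources used here. Changes are log2 of cKO plus 1 over control plus 1, for genes with a mean of at least 1, called at 1.5-fold as in the methods. Intervals are 95% Clopper-Pearson, or exact conditional for ratios. The exact binomial test used genes with at least 10 reads, with Benjamini-Hochberg adjustment across all of them; it and edgeR's exact test were added after the unit was known. A floor is 3 reads in the library at 0.

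All 10 members were named, with pathway genes past 1.5-fold at a mean of at least 50 and the gene with the highest mean of each list; Foxh1, Smad4, Smad9, Itgav, Itgb6, Itgb8, Furin, Skil, Pmepa1, Ldlrad4, Itgae and the pathway genes at 0 were named after their values were seen. Members and lists were chosen with earlier results of these data known. Coordinates and exon lengths came from GENCODE vM21 on GRCm38, promoters from RefSeq. The value of 1 response gene is not reported here. Steps were tested on simulated data. Python 3.11.15, numpy 2.4.6, scipy 1.17.1, pandas 2.3.3, matplotlib 3.10.9, R 4.3.3 and edgeR 4.0.16 were used.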

Additional observations from a re-analysis of the deposited data

How the results depend on the processing

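No paired analysis was possible because the groups hold 1 library each. Depth limits Tgfb2 and Tgfb3, and 1 library per genotype limits every value. The alternatives were pseudocounts of 0.1 and 5, no filter, a minimum mean of 10, 3 scalings, a 2-fold threshold, genes above 0 in both libraries and Foxp3 as denominator; the read tests were chosen after seeing the data. No sign of a member reversed under the 3 scalings, and pseudocounts and filters could not reverse one. Equal T cell core sums gave log2 fold changes of 1.65 for Lrrc32, 0.78 for Tgfbr1, 0.74 for Nrros, 0.67 for Tgfb1, 0.66 for Smad3, 0.61 for Tgfbr2, 0.50 for Smad2 and 0.49 for Smad7, a median of 0.63 for the members and 6 members higher. The list medians were then 0.62 for transcription partners, 0.59 for response genes, 0.45 for SMAD regulators, 0.30 for co-receptors and 0.22 for latency and activation, all relative to a median of 0.26 for all genes. Scaling to library totals gave 0.34 for Nrros, 0.28 for Tgfb1, 0.21 for Tgfbr2 and 0.10 for Smad7. The median was then 0.24 for the members and 0.23 for transcription partners, against -0.13 for all genes. Under this scaling 1 member, Tgfb2, was lower, as were 4424 of the 16659 genes tested. Tgfb2 was also lower with a pseudocount of 0.1, as were 4066 of all genes tested. A minimum mean of 10, which leaves out Tgfb2, moved the medians to 0.20 for latency and activation and 0.43 for related ligands; the latter was 0.76 for genes above 0 in both libraries. With Foxp3 as denominator in place of the T cell core genes, the changes of ratio were 2.47 for Lrrc32, 1.34 for Tgfbr1, 1.31 for Nrros, 1.25 for Tgfb1, 1.24 for Smad3, 1.19 for Tgfbr2 and 1.10 for both Smad2 and Smad7. The number of members higher was 1 by the exact binomial test and 0 by edgeR's exact test at an assumed coefficient of 0.4. TMM scaling moved no value past its interval. The cause of these shifts was not tested beyond the scaling itself.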

Other observations

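Genes of related ligands and their antagonists were sparse, and 12 of 17 passed the filter. On the log2 scale with 1 added, 5 of these were past 1.5-fold higher and 5 lower, though Nog, with 4 and 0 reads, was at least 1.13-fold lower against a floor of 3 reads. They had a median log2 fold change of -0.21, or -0.04 with the 5 genes at 0 in 1 library set at their bound. Inhba, which encodes the activin A subunit, had the highest mean deposited value, with 595 control and 860 cKO reads and a 1.70-fold higher level. Gdf11, a related ligand that signals through SMAD2 and SMAD3, was 1.72-fold higher, from 520 to 760 reads. Fstl3, which encodes a secreted protein that binds activin, had 0 and 101 reads, at least 39.6-fold higher against a floor of 3 reads in the control library. Bmp1, a protease that processes procollagen, fell by 2.11 on the log2 scale, from 90 to 17 reads. Bmp6 had 45 and 0 reads and Nodal 29 and 0 reads, at least 12.8-fold and 8.22-fold lower against the same floor in the cKO library. Bmp4, Inha, Inhbb, Mstn and Chrd had 0 reads in both libraries.

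Ltbp2, a latent TGF-beta binding protein gene, had 0 and 22 reads; it was at least 8.62-fold higher against a floor of 3 reads in the control library. With 1 library per genotype these changes have no replicate check.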
